A study of Mus musculus with 2 samples.

Results

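The T-box transcription factors T, Eomes, Tbx2, Tbx3, Tbx4, Tbx6 and Tbx20 were described across the cell classes of gastrulating mouse embryos. They were the 7 of 32285 measured genes whose symbols had been listed for this purpose, and all 7 were present in the deposited gene table. With them went the accessibility peaks overlapping a window of 50000 bp to each side of their annotated starts, 166 of 229480 peaks. Each gene's RNA and the accessibility of the chromatin around it came from the same nuclei.

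T-box proteins share a DNA-binding domain, the T-box, and act as activators or repressors that set up germ layers and organ fields in the embryo. T (Brachyury) and Eomes are induced in the posterior epiblast and the primitive streak by Wnt and Nodal signals, and both are needed to form mesoderm, with Eomes also needed for definitive endoderm and, in the trophoblast, for trophoblast stem cells. Tbx6 directs paraxial mesoderm, Tbx20 acts in the heart field, Tbx2 and the closely related Tbx3 are mostly repressors in heart, limb and extraembryonic tissue, and Tbx4 is known from the allantois and the hindlimb.

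The series held 1 library of nuclear RNA and 1 library of chromatin accessibility, both made from one pool of dissociated mouse embryos at embryonic day 7.0 (E7.0). No treatment or mutant allele was named, and no source used here gives the number of embryos in the pool. The labels contradicted each other: title, age and protocol named E7.0 embryos, whereas other entries named goblet cells, the 8th section of the small intestine or distal colon, and the strain RedMUC298trTg. The RNA went with the embryo reading: 9 goblet and intestinal genes together held 32.2 CPM (unique molecules, or UMIs, per 1000000 UMIs; 95% counting interval 31.4 to 33.0), against 1615 (1609 to 1621) for 8 epiblast genes and 4140 (4130 to 4149) for 11 visceral endoderm genes.

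Of 15341 barcodes, all shared by both assays, 12796 nuclei were kept, with a median of 10471 UMIs and 17350 peak counts. Nuclei were grouped separately by each assay, so that RNA could be read in classes built from accessibility (18 clusters, with peaks near the 7 genes left out) and accessibility in classes built from RNA (22 clusters, with T-box genes left out). Classes were called "-like" from marker lists that hold no T-box gene, and clusters that could not be named, 28.7% of nuclei by accessibility and 18.4% by RNA, are given by number. Cluster 8 of the accessibility grouping (646 nuclei) stayed unnamed because embryonic and extraembryonic mesoderm markers were raised together in it, and its leading genes were Unc5c, Pcsk5, Fendrr, Bmp5 and Cdh8. With 1 library per assay there is no replicate, so no test was made, and every interval covers counting error alone.

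The reference promoters are shown for 4 of the 5 genes in the promoter table, 3 with a peak over the window (T, Tbx6 and Tbx20) and Eomes, whose window had none. Sequences were copied from RefSeq (GRCm38.p6), as the 250 bases upstream of the start, 5′ to 3′ on the gene's strand. For Eomes the RefSeq start lay upstream of the starts used for the peaks (118478212 to 118478344). Capitals mark the only match to the motifs searched.
T, chr17:8434173-8434422, plus strand: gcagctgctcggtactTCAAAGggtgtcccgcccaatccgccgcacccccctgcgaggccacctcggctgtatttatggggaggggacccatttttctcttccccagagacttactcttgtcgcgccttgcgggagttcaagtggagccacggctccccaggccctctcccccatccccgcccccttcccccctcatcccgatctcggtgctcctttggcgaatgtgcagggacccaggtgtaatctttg
Eomes, chr9:118477939-118478188, plus strand: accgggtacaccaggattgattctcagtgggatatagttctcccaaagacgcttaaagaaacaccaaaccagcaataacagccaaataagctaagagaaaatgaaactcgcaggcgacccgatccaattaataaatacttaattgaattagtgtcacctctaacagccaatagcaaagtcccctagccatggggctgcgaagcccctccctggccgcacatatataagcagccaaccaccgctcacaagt
Tbx6, chr7:126781233-126781482, plus strand: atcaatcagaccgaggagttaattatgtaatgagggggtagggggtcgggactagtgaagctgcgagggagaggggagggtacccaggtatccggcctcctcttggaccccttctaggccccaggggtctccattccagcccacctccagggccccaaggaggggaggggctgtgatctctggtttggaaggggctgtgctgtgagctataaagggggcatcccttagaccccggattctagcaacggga
Tbx20, chr9:24774304-24774553, minus strand: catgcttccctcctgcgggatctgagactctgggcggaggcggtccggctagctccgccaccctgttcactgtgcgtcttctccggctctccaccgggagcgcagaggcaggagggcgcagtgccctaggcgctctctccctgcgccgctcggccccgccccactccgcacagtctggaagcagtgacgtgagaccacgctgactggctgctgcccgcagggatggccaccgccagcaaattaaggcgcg
The search covered these bases and the next 50 on both strands for the T-box site AGGTGTGA, the TCF/LEF core CTTTGA, the FOXH1 motif AATCCACA and the GATA motif AGATAA. In T, a TCF/LEF core lay on the minus strand with its first base 234 bases upstream of the start, and Tbx4, whose promoter is also in the table, had no match. Among 27025 promoters of the same length, 16.2% held the TCF/LEF core, 1.27% the T-box site, 0.873% the FOXH1 motif and 11.4% the GATA motif. Tbx2 and Tbx3 were not in the table.

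The RNA of 6 of the genes fell into 3 arrangements across the accessibility-defined classes, and Tbx4 was too sparse to place. T and Eomes were both high in primitive streak-like and embryonic mesoderm-like nuclei, though T was low in cluster 8 and Eomes was not. Tbx3, Tbx20 and Tbx2 peaked together in cluster 8, and Tbx6 was highest in embryonic mesoderm-like nuclei. Levels below are in CPM and are compared between classes for 1 gene, never between genes, because no gene lengths were used.

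**Figure D1:**
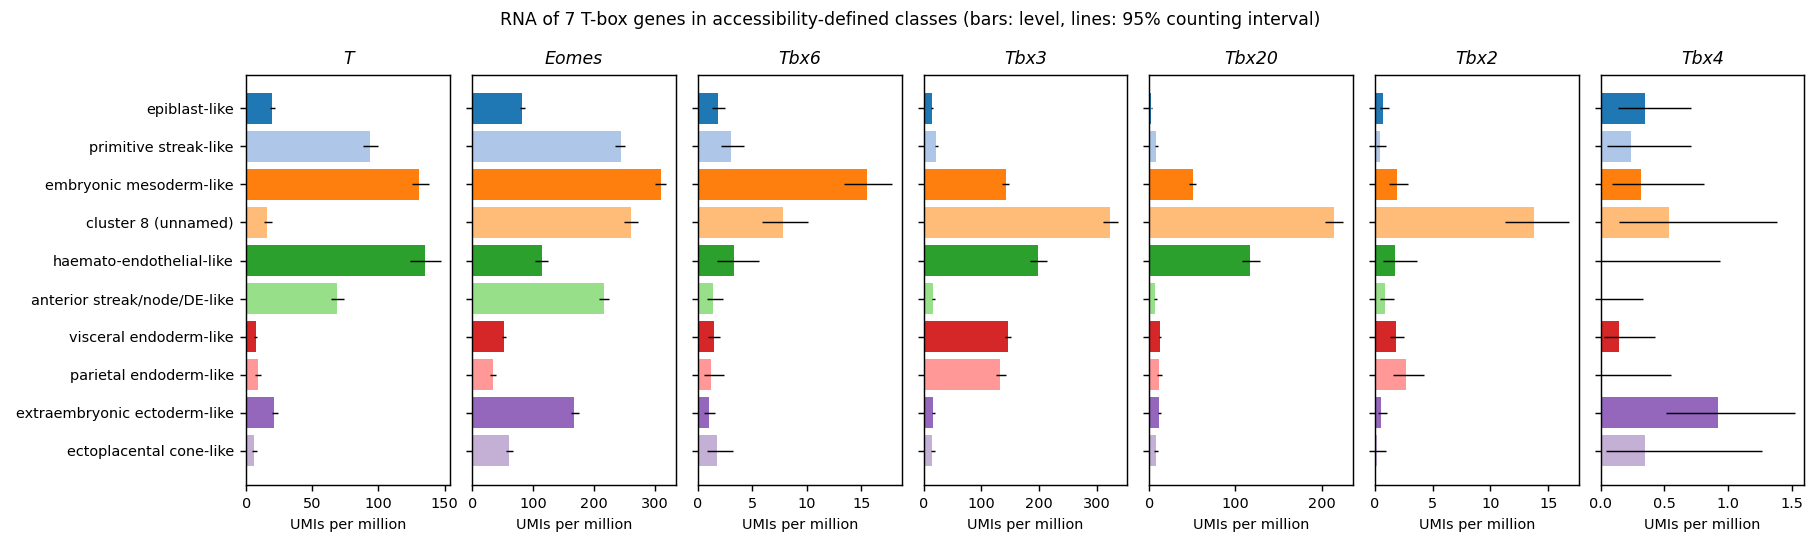
Level of each gene (x axis, CPM, a separate scale for each gene) in 10 groups of nuclei defined by accessibility (y axis). Bars are the pooled level and black lines the 95% counting interval. T and Eomes are high in the primitive streak-like and embryonic mesoderm-like classes, T is low in cluster 8, Tbx3, Tbx20 and Tbx2 are highest in cluster 8, and Tbx4 stays under 1 everywhere.

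T, the Brachyury gene of streak and axial mesoderm (chr17, start 8434423), was highest in haemato-endothelial progenitor-like nuclei at 135 CPM (124 to 147) and embryonic mesoderm-like nuclei at 131 CPM (125 to 138). These intervals overlapped. Primitive streak-like nuclei followed at 93.8 CPM (88.5 to 99.4), and the 2 clusters of the anterior streak, node and definitive endoderm-like class differed, with 91.5 CPM (84.4 to 99.0) in cluster 10, with the ciliary genes Zbbx and Foxj1 and the node gene Chrd among its leading genes, and 34.4 CPM (29.2 to 40.3) in cluster 14, with the endoderm gene Cer1 among its leading genes. Cluster 8 held only 15.9 CPM of T (13.1 to 19.0), less than extraembryonic ectoderm-like nuclei at 21.2 CPM (19.1 to 23.6). The lowest levels were 6.93 CPM in visceral endoderm-like and 5.95 CPM in ectoplacental cone and giant cell-like nuclei. Within the epiblast-like class, cluster 6 had 34.9 CPM (31.1 to 39.0), cluster 15 had 9.06 CPM (6.27 to 12.7) and cluster 7 had 7.56 CPM (5.77 to 9.73).

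A UMI of T was found in 62.5% of haemato-endothelial progenitor-like nuclei (57.3 to 67.5), 53.7% of embryonic mesoderm-like nuclei (50.8 to 56.6) and 45.4% of primitive streak-like nuclei (42.3 to 48.4). The share in visceral endoderm-like nuclei, taken as a low reference for T, was 7.31% (6.07 to 8.73). The median there was 12322 UMIs, against medians of 10120, 10512 and 11021 in the 3 classes. With every nucleus thinned to 5000 UMIs, the same 4 shares were 47.1%, 39.2%, 29.4% and 2.91%. T positive nuclei of these classes held a mean of 2.33, 2.68 and 2.46 UMIs, against 1.27 in visceral endoderm-like nuclei.

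Eomes, needed for mesoderm, definitive endoderm and trophoblast (chr9, starts 118478212 to 118478344), had its highest level in embryonic mesoderm-like nuclei, 309.6 CPM (299.9 to 319). Cluster 8, at 261 CPM (249.9 to 273), and primitive streak-like nuclei, at 244 CPM (235 to 252), overlapped in their intervals, and cluster 10 was at 232 CPM (221 to 244). Unlike T, Eomes stayed high in extraembryonic ectoderm-like nuclei, the tissue that holds trophoblast stem cells, at 168 CPM (162 to 175), and it was lower in haemato-endothelial progenitor-like nuclei at 114 CPM (104 to 125). The epiblast-like class had 82.2 CPM, again with cluster 6 above cluster 7 (118 CPM, 110.5 to 125, against 58.9 CPM, 53.6 to 64.5). The 2 visceral endoderm-like clusters also differed, cluster 9 with 76.8 CPM (71.1 to 82.8) and cluster 5 with 34.7 CPM (31.4 to 38.2). Parietal endoderm-like nuclei were lowest at 34.2 CPM, with a UMI in 31.4% of nuclei (27.1 to 36.0) at a median of 13063 UMIs. With no class set aside as lacking Eomes, the background of free RNA for this gene is not known, and its low levels are not read as expression. In RefSeq, Gm33408 overlaps Eomes and LOC115486424 overlaps T. Neither was analysed here, and with the counting's use of strand not given, reads of such neighbours cannot be told apart from those of Eomes and T.

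Tbx6, the paraxial mesoderm gene (chr7, start 126781483), had 472 UMIs in all kept nuclei, and 195 of them were in embryonic mesoderm-like nuclei. Its level there was 15.5 CPM (13.4 to 17.8), 7.42-fold that of all other nuclei (6.15 to 8.95). Cluster 8 had 7.80 CPM (5.92 to 10.1). Haemato-endothelial progenitor-like nuclei at 3.31 CPM and primitive streak-like nuclei at 3.05 CPM did not differ beyond counting error, and the remaining named classes lay between 0.982 and 1.82 CPM. A UMI was seen in 14.5% of embryonic mesoderm-like nuclei (12.5 to 16.6) and in 1.75% of visceral endoderm-like nuclei (1.15 to 2.53).

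Tbx3, a repressor also known from extraembryonic endoderm and pluripotent cells (chr5, starts 119670669 to 119671018), was found in mesoderm and endoderm but hardly in the streak. Cluster 8 held 323 CPM (310 to 336), haemato-endothelial progenitor-like nuclei 199 CPM (185 to 214), visceral endoderm-like nuclei 146 CPM (141 to 151), embryonic mesoderm-like nuclei 142 CPM (135 to 148) and parietal endoderm-like nuclei 133 CPM (125 to 142). The intervals of visceral endoderm-like and embryonic mesoderm-like nuclei overlapped, as did those of embryonic mesoderm-like and parietal endoderm-like nuclei. Primitive streak-like nuclei held 22.4 CPM (19.9 to 25.2), and the epiblast-like, anterior streak, node and definitive endoderm-like, extraembryonic ectoderm-like and ectoplacental cone and giant cell-like classes lay between 14.7 and 16.9 CPM. A UMI was present in 72.3% of haemato-endothelial progenitor-like, 72.7% of parietal endoderm-like and 71.9% of visceral endoderm-like nuclei, against 12.3% of epiblast-like nuclei (10.8 to 13.8, median 9986 UMIs). The antisense gene Tbx3os1 overlaps Tbx3 and had 615 UMIs, and no source used here says whether the counting used strand, so the split of reads between the 2 genes is uncertain.

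Tbx20, a heart field factor (chr9, minus strand, starts 24774284 to 24774303), had 1594 of its 3870 UMIs in cluster 8. The level there was 214 CPM (204 to 225), 13.0-fold that of all other nuclei (12.2 to 13.9). Haemato-endothelial progenitor-like nuclei had 117 CPM (107 to 128) and embryonic mesoderm-like nuclei 50.2 CPM (46.4 to 54.3), while primitive streak-like nuclei had 8.11 CPM and epiblast-like nuclei 2.50 CPM. A UMI was found in 73.7% of cluster 8 (70.1 to 77.0, median 10743 UMIs) and in 2.51% of epiblast-like nuclei (1.86 to 3.30), a share read as background.

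Tbx2, the close relative of Tbx3 (chr11, start 85832551), was sparse, with 263 UMIs, of which 103 fell in cluster 8. Its level was 13.8 CPM there (11.3 to 16.8), 12.0-fold that of all other nuclei (9.25 to 15.4), and at most 2.74 CPM in any other cluster. Tbx4 (chr11, starts 85886422 to 85896765) had 46 UMIs in 45 nuclei and stayed under the 50 UMIs asked for a fold. Extraembryonic ectoderm-like nuclei held 15 of these UMIs (0.921 CPM, 0.515 to 1.52), cluster 8 held 4, and none was seen in the haemato-endothelial progenitor-like, parietal endoderm-like and anterior streak, node and definitive endoderm-like classes, where 0 UMIs allow up to 0.267 CPM in the last.

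Cluster 0 (1273 nuclei, median 2299 UMIs) had too few raised markers to be named. It held the genes near their level over all kept nuclei: T at 40.8 CPM against 39.2, Eomes at 116 against 141 and Tbx3 at 69.4 against 75.7.

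By a rule of at least 2-fold over all other nuclei, 5 of the 6 genes with 50 or more UMIs were higher in embryonic mesoderm-like nuclei, where 5.80% of 17686 genes were. These were Tbx6, T at 4.32-fold, Eomes at 2.47-fold, and Tbx20 at 2.07-fold and Tbx3 at 2.04-fold, both close to the limit. Cluster 8 had 4 of 6 (Tbx20, Tbx2, Tbx3 at 5.18-fold and Tbx6 at 2.60-fold) against 6.63% of all genes, with Eomes at 1.94-fold. Haemato-endothelial progenitor-like nuclei had 3 of 6 (Tbx20 at 4.86-fold, T at 3.70-fold and Tbx3 at 2.76-fold) against 7.08%. Primitive streak-like nuclei had 1 of 6, T at 2.75-fold, against 3.13%, and visceral endoderm-like nuclei 1 of 6, Tbx3 at 2.29-fold, against 10.0%. None of the 6 reached it in the anterior streak, node and definitive endoderm-like (5.42% of all genes), epiblast-like (6.02%), ectoplacental cone and giant cell-like (6.31%), extraembryonic ectoderm-like (6.89%) and parietal endoderm-like (9.31%) classes. In all, 5 of the 6 genes reached the limit in a named class, as did 41.3% of all genes. At a clustering resolution of 0.5, which left no embryonic mesoderm-like class by accessibility, 3 did.

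The same 6 genes were also counted when at least 2-fold lower. In primitive streak-like nuclei 3 were, Tbx2 at 0.207-fold, Tbx3 at 0.278-fold and Tbx20 at 0.287-fold, where 11.8% of all genes were lower. In cluster 8 only T was, at 0.392-fold, against 15.4%. In visceral endoderm-like nuclei 4 were lower (24.9% of all genes), with T at 0.156-fold, Eomes at 0.337-fold, Tbx6 at 0.408-fold and Tbx20 at 0.426-fold. Parietal endoderm-like nuclei also had 4 (23.2%), T, Eomes, Tbx6 and Tbx20. The count was 4 as well in the anterior streak, node and definitive endoderm-like (10.6%), epiblast-like (12.8%) and extraembryonic ectoderm-like (25.5%) classes, and 5 in ectoplacental cone and giant cell-like nuclei (26.7%). It was 0 in embryonic mesoderm-like (15.1%) and haemato-endothelial progenitor-like nuclei (17.5%). In the unnamed cluster 3 (1136 nuclei) the 6 genes had a median log2 fold of -2.3 against -0.03 for all genes. The share of all genes at least 2-fold lower was not taken for that cluster, so no count is set against it.

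Accessibility near the genes was read in the RNA-defined classes. The promoters differed little between classes in the upward direction, and the distal peaks differed much more. Promoter peaks were those touching a start or its flank, 1000 bp on the upstream side and 100 bp on the other, and the 7 genes had 8 such peaks, with 2 each at Tbx4 and Tbx6 and none at Eomes. Of these 8, with 563 to 11952 counts each, 0 were 2-fold higher in any named class, against 22.3% of 21057 promoter peaks. Of 128 distal peaks near the genes with at least 200 counts, 79 were 2-fold higher in at least 1 class, against 62.6% of 150430 distal peaks, and the 2 shares are close. The call used the fold alone, so some of the 79 had few counts and an interval that included 1. One was a peak 30.2 kb upstream of T with 257 counts (2.01-fold, 0.644 to 4.82). What part low counts play in the contrast with the promoters was not tested. By class, 21 of the 128 distal peaks were higher in extraembryonic mesoderm-like nuclei, where 9.71% of all distal peaks were, 20 in visceral endoderm-like (14.3%), 14 in epiblast-like (10.9%) and 13 in haemato-endothelial progenitor-like nuclei (9.26%). Embryonic mesoderm-like (10.6%) and extraembryonic ectoderm-like nuclei (12.6%) had 12 each, parietal endoderm-like nuclei 11 (13.7%), primitive streak-like nuclei 8 (2.20%) and anterior streak, node and definitive endoderm-like nuclei 7 (8.38%). Of the 8 in primitive streak-like nuclei, 4 lay near T and 3 near Eomes. Classes with like counts of higher peaks could differ in lower ones. At least 2-fold lower were 79 of the 128 in extraembryonic ectoderm-like, 61 in parietal endoderm-like, 50 in visceral endoderm-like and 20 in embryonic mesoderm-like nuclei. The share of all distal peaks that were lower was not taken, so these counts are not read further.

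**Figure D2:**
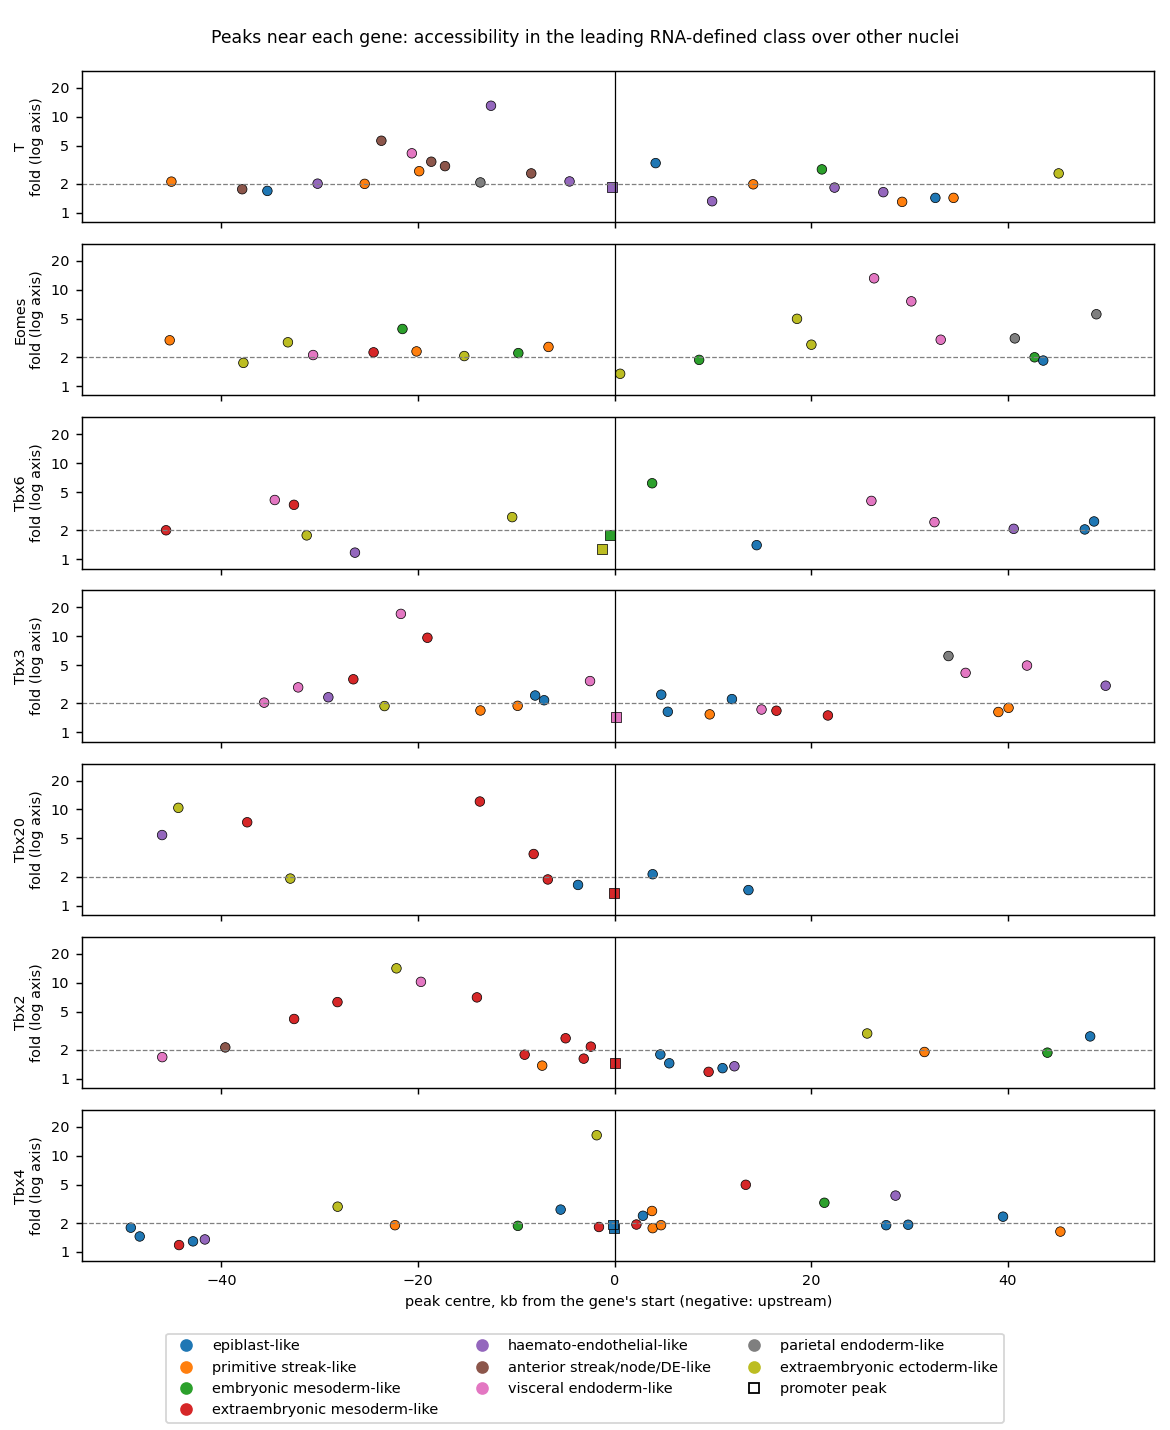
Peaks within 50000 bp of each gene's start, by the distance of the peak centre (x axis, kb, negative upstream) and the fold of accessibility in the class where it was highest over all other nuclei (y axis, log scale). Colours give that class, squares are promoter peaks, and the dashed line marks 2-fold. Squares stay below the line, and the highest circles reach 17.1-fold near Tbx3, 16.4-fold near Tbx4 and 14.1-fold near Tbx2. Peaks at promoters of other genes and peaks under 200 counts are not drawn.

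The T promoter peak (chr17:8433717-8434618), which covers the promoter shown above, had 43.0 CPM of peak counts (per 1000000 counts in peaks, the scale of all accessibility levels here) in haemato-endothelial progenitor-like nuclei (35.1 to 52.1), 35.2 in embryonic mesoderm-like (32.0 to 38.6) and 33.9 in primitive streak-like nuclei (31.0 to 37.0). Epiblast-like nuclei had 28.1, and visceral and parietal endoderm-like nuclei had 5.61 and 6.24. The 3 highest levels overlapped in their intervals. Haemato-endothelial progenitor-like nuclei stood at 1.85-fold over other nuclei (1.5 to 2.25) and visceral endoderm-like nuclei at 0.213-fold. With called doublets kept, the visceral endoderm-like value was 0.484-fold. At least 2-fold lower accessibility was found at 3 of the 8 promoter peaks in visceral endoderm-like nuclei, the one of T and both of Tbx4, where 23.8% of all promoter peaks were lower. Parietal endoderm-like and extraembryonic ectoderm-like nuclei also had 3 of 8, against 22.5% and 22.8%.

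Upstream of T lay a distal peak 12.6 kb from the start (chr17:8421416-8422270) with 39.2 CPM in haemato-endothelial progenitor-like nuclei (31.6 to 48.0). It had 16.7 in extraembryonic mesoderm-like nuclei, 6.88 in embryonic mesoderm-like nuclei, 4.52 in primitive streak-like and 0.338 in visceral endoderm-like nuclei. The fold in the haemato-endothelial progenitor-like class was 13.0 (10.3 to 16.4), and the peak was open in 29.0% of its nuclei against 2.61% of the others. The distal peak with the most counts, 45.1 kb upstream (chr17:8388897-8389767), was instead about as open in primitive streak-like (45.6), anterior streak, node and definitive endoderm-like (44.9) and embryonic mesoderm-like nuclei (43.0), with overlapping intervals, and lower in haemato-endothelial progenitor-like nuclei (15.4). The 12.6 kb peak was also 2.06-fold higher in embryonic mesoderm-like nuclei (1.61 to 2.61), and a peak 4.59 kb upstream was raised in both classes, 2.12-fold in haemato-endothelial progenitor-like (1.57 to 2.79) and 1.44-fold in embryonic mesoderm-like nuclei (1.22 to 1.68). These peaks came from 27 distal peaks, and the one at 4.59 kb was picked after its values were seen. Both classes were raised at 12.6 and 4.59 kb, while at 45.1 kb embryonic mesoderm-like nuclei had more than haemato-endothelial progenitor-like nuclei. The RNA and accessibility classes of 1 name were built from different assays.

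Eomes had no peak in its promoter window. Its most counted peak (chr9:118478484-118479322) lay inside the RefSeq gene, 0.559 kb downstream of the start, and was counted among the Eomes distal peaks. This peak ranged only from 23.0 to 38.5 CPM, highest in extraembryonic ectoderm-like nuclei at 1.34-fold (1.21 to 1.49). A peak 21.6 kb upstream (chr9:118456218-118457039) followed the mesoderm, with 14.3 in embryonic mesoderm-like (12.4 to 16.6), 10.8 in extraembryonic mesoderm-like and 1.01 in extraembryonic ectoderm-like nuclei. A peak 26.4 kb downstream (chr9:118504357-118505122) was high where Eomes RNA was low: 11 in visceral endoderm-like nuclei (9.42 to 12.8), 8.41 in parietal endoderm-like nuclei and under 1 in the other named classes. Its fold in visceral endoderm-like nuclei was 13.2 (10.2 to 17.1), or 8.43 when at least 2000 UMIs and 2000 peak counts were asked of each nucleus. The nearest gene of a peak is not shown to be its target.

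Tbx6 had a peak 3.81 kb downstream of its start (chr7:126784859-126785736), over the 3′ end of the gene, that followed its RNA. Embryonic mesoderm-like nuclei had 53.4 CPM there (49.5 to 57.6), extraembryonic mesoderm-like nuclei 27.9 and primitive streak-like nuclei 14.9. The fold in embryonic mesoderm-like nuclei was 6.17 (5.58 to 6.82), and 40.7% of those nuclei had the peak open against 6.94% of the others. The Tbx6 promoter peak nearer the start (chr7:126780631-126781441) moved less, with 1.78-fold in embryonic mesoderm-like nuclei (1.60 to 1.98). Tbx6 lies in a gene-dense region, and 10 of the 25 peaks in its window overlapped promoters of other genes.

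Near Tbx3, 2 upstream peaks led in different classes, one in endoderm and one in extraembryonic mesoderm. A peak 21.7 kb upstream (chr5:119648486-119649359) had 15.7 CPM in visceral endoderm-like nuclei (13.8 to 17.9), 6.24 in parietal endoderm-like and 2.21 in extraembryonic mesoderm-like nuclei, a fold of 17.1 in the first (13.5 to 21.8). That fold was 8.5 with at least 2000 UMIs and 2000 peak counts per nucleus, 10.8 at resolution 0.5 and 11.1 with called doublets kept. A peak 19.0 kb upstream (chr5:119651172-119652072), picked after its values were seen, had 51.2 CPM in extraembryonic mesoderm-like nuclei (44.5 to 58.5), 11.3 in embryonic mesoderm-like and 4.80 in visceral endoderm-like nuclei, a fold of 9.65 in the first (8.21 to 11.3). A peak 2.50 kb upstream (chr5:119667759-119668570) was high in visceral endoderm and in 2 mesoderm classes, with 32.2 in visceral endoderm-like (29.4 to 35.1), 29.5 in extraembryonic mesoderm-like (24.8 to 34.9) and 24.5 in embryonic mesoderm-like nuclei (21.9 to 27.3). Parietal endoderm-like nuclei had 16 (11 to 22.6), and haemato-endothelial progenitor-like nuclei, the named class with the most Tbx3 RNA, had 12.0 (8.17 to 17.1), or 0.972-fold over other nuclei. It stood at 5.73 in primitive streak-like, 5.23 in anterior streak, node and definitive endoderm-like, 4.85 in epiblast-like and 1.22 in extraembryonic ectoderm-like nuclei. The Tbx3 promoter peak was high in extraembryonic ectoderm-like nuclei too, with 67.7 CPM against 71.5 in visceral endoderm-like nuclei, although Tbx3 RNA was 16.9 CPM in the extraembryonic ectoderm-like class defined by accessibility.

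Tbx20 and Tbx2 each had a peak that led in extraembryonic mesoderm-like nuclei. For Tbx20 it lay 13.7 kb upstream (chr9:24787532-24788493), with 10.2 CPM (7.39 to 13.8) and a fold of 12.1 (8.23 to 17.5) over other nuclei, against 2.50 CPM in embryonic mesoderm-like nuclei. For Tbx2 it lay 14 kb upstream (chr11:85818093-85818989), with 30.4 CPM (25.3 to 36.2) and a fold of 7.03 (5.74 to 8.56), against 13.2 in embryonic mesoderm-like and 0.796 in extraembryonic ectoderm-like nuclei. A peak 22.2 kb upstream of Tbx2 (chr11:85809907-85810803) was open in extraembryonic ectoderm-like nuclei instead, at 10.3 CPM and a fold of 14.1 (10.5 to 18.9), where Tbx2 RNA was 0.552 CPM. With called doublets kept, that fold was 9.35.

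Tbx4 was nearly without RNA but not without open chromatin. Its promoter peaks together had 22.4 CPM in epiblast-like and 22.2 in primitive streak-like nuclei, against 3.18 in visceral endoderm-like and 2.44 in parietal endoderm-like nuclei. A peak 1.83 kb upstream of the first start (chr11:85884197-85884994) had 14.4 CPM in extraembryonic ectoderm-like nuclei (12.1 to 17.0), a fold of 16.4 (12.6 to 21.4). By accessibility, 15 of the 46 Tbx4 UMIs were in nuclei of that name. Tbx2 and Tbx4 are neighbours and shared peaks, among them the most counted distal peak of both (chr11:85841686-85842534), which ranged only from 18.5 to 24.0 CPM.

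**Figure D3:**
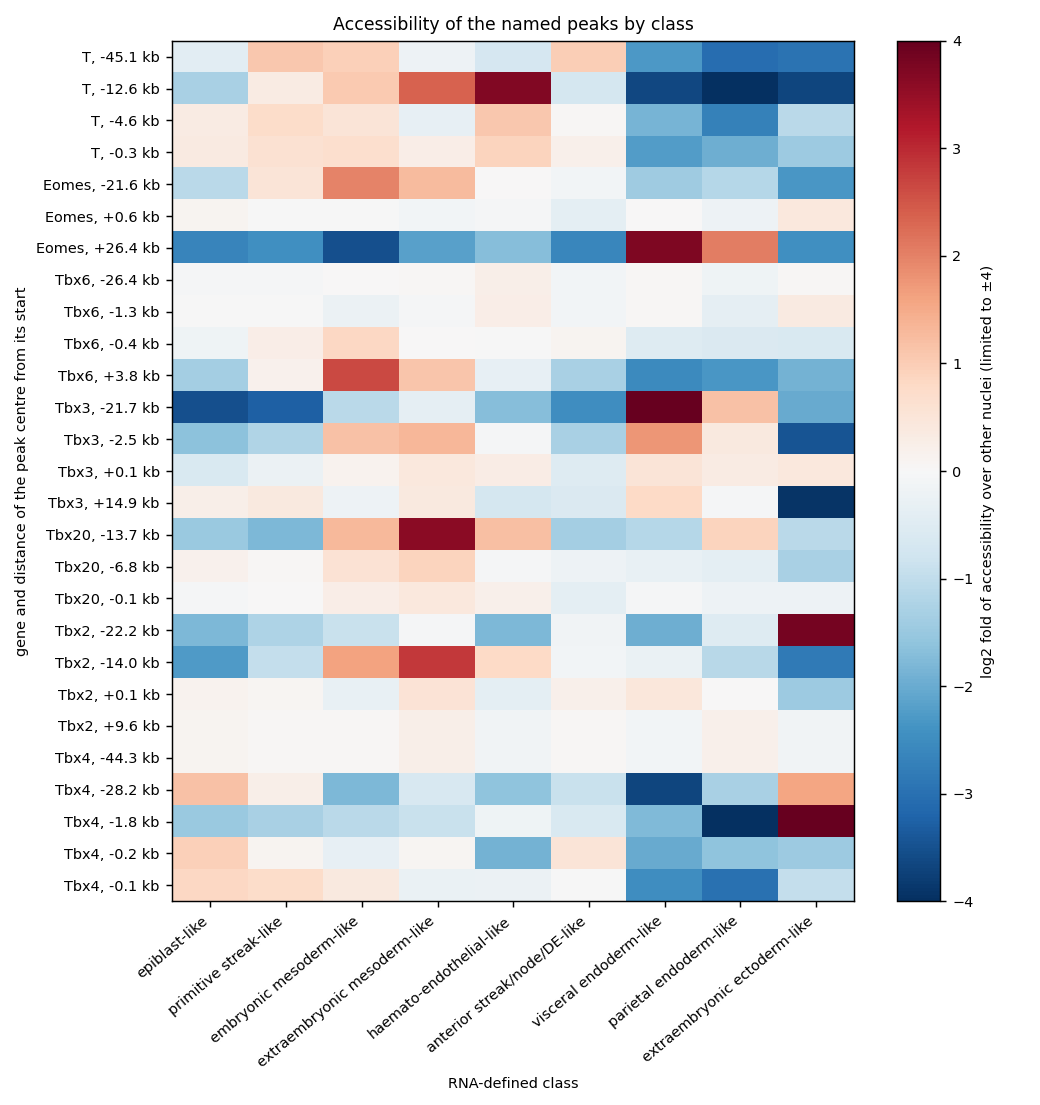
Accessibility of the peaks named by rule for each gene (y axis, gene and distance of the peak centre from its start) in the 9 named RNA-defined classes (x axis). Colour is the log2 fold over all other nuclei, red higher and blue lower, limited to 4 in either direction. The promoter peaks stay under 2-fold higher in every class, while the red cells of the distal peaks can sit in different classes for 1 gene, as at Tbx2 and Eomes.

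Across the 18 accessibility clusters, whose points share both libraries and differ in depth, the correlation of a peak with the RNA of its gene was given as a description. Pearson's r reached 0.88 for the Tbx3 peak 2.50 kb upstream, 0.85 for the Tbx6 peak 3.81 kb downstream, 0.78 for the Tbx20 peak 13.7 kb upstream, 0.77 for a T peak 4.59 kb upstream, 0.74 for the Tbx2 peak 14 kb upstream and 0.71 for the Eomes peak 21.6 kb upstream. These were the highest of each gene among distal peaks with at least 200 counts, chosen after their values were seen. Below that limit, a Tbx20 peak 27.0 kb upstream with 150 counts had r = 0.81. Over the distal peaks with at least 200 counts (10 of 14 for Tbx20, 24 of 27 for T), the median of a gene was far lower, 0.34 for T, 0.18 for Tbx3, 0.11 for Tbx20, 0.10 for Tbx6, 0.15 for Tbx2 and 0.08 for Eomes. The Eomes peak open in visceral endoderm had r = -0.59.

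Co-detection asked whether nuclei with a UMI of 1 gene also had the other, after thinning to 5000 UMIs (11187 nuclei). At least 3 of the 7 genes were seen together in 34.1% of cluster 8, 21.1% of haemato-endothelial progenitor-like and 19.5% of embryonic mesoderm-like nuclei. The share was 3.37% in primitive streak-like and 0.749% in epiblast-like nuclei. None of the 7 was seen in 3.74% of cluster 8, against 63.6% of epiblast-like and 64.2% of ectoplacental cone and giant cell-like nuclei.

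Eomes was found more often in nuclei with T than without in the primitive streak-like class, while in embryonic mesoderm-like nuclei the intervals overlapped. Among primitive streak-like nuclei, Eomes was detected in 72.4% of those with T (66.9 to 77.4) and 60.5% of those without (56.8 to 64.1), with median depths of 11379 and 11172 UMIs before thinning. In cluster 10 the shares were 68.8% (61.7 to 75.2) and 53.0% (48.0 to 57.9). In embryonic mesoderm-like nuclei they were 70.5% (65.9 to 74.9) and 73.3% (69.6 to 76.6), which overlapped, and in extraembryonic ectoderm-like nuclei 54.3% and 52.9%. Without thinning, the primitive streak-like shares were 89.7% and 76.6%.

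In epiblast-like nuclei, Eomes was found in 59.6% of nuclei with T (50.8 to 67.9) and 25% of nuclei without (23.0 to 27.1). It lay mostly in cluster 6, with 69.6% (59.1 to 78.7) against 31.0% (27.7 to 34.5). The share among nuclei with T changed with the setting. It was 35.7% at resolution 0.5 (26.3 to 46.0) and 28.6% at resolution 2 (19.2 to 39.5). With at least 2000 UMIs and 2000 peak counts per nucleus it was 26.3% (16.9 to 37.7). The difference from nuclei without T stayed above 0 in all 7 alternatives, but no interval was made for it. It fell from 34.6 to 5.31 percentage points in the lowest of them. Its order against the primitive streak-like difference (11.9 points) turned in 2 of them, with 9.24 against 17.8 points at resolution 2 and 5.31 against 12.3 with the deeper nuclei.

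Within the embryonic mesoderm-like class, the thinned shares with Tbx3 and Tbx20 were lower in nuclei with T than in nuclei without. Tbx3 was found in 31.4% of nuclei with T (27.0 to 36.1) and 40.9% of nuclei without (37.1 to 44.8), and Tbx20 in 13.5% (10.4 to 17.2) and 22.2% (19.1 to 25.7). Tbx3 and Tbx20 went together: Tbx20 was found in 28.2% of nuclei with Tbx3 (23.8 to 33.0) and in 13.3% of nuclei without (10.8 to 16.1). The first of these shares was 43.4% at resolution 2 and 41.2% without thinning, where the difference widened from 15 to 25.8 percentage points. Tbx6 was rarer with Tbx3, in 3.82% (2.15 to 6.22) against 8.73% (6.70 to 11.1). Without thinning, the median depths of nuclei with and without T were 11480 and 9147 UMIs, and the lower Tbx20 share with T was gone (28.4% against 27.9%). The difference, -8.71 percentage points after thinning, was -2.49 with nuclei over 20000 UMIs left out and -16.5 at resolution 2.

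In haemato-endothelial progenitor-like nuclei, the intervals with and without T overlapped. Tbx20 was found in 35.3% of nuclei with T (27.8 to 43.3) and 36.6% without (29.4 to 44.2), and the intervals for Tbx3 also overlapped (44.2%, 36.3 to 52.4, against 54.9%, 47.2 to 62.4). In cluster 8, Tbx20 was found in 63.5% of nuclei with Tbx3 (58.6 to 68.1) and 49.2% without (42.1 to 56.4). Tbx3 was found in 89.7% of the 39 nuclei of cluster 8 with Tbx2 (75.8 to 97.1) and 66.1% of those without (62.1 to 70.0).

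**Figure D4:**
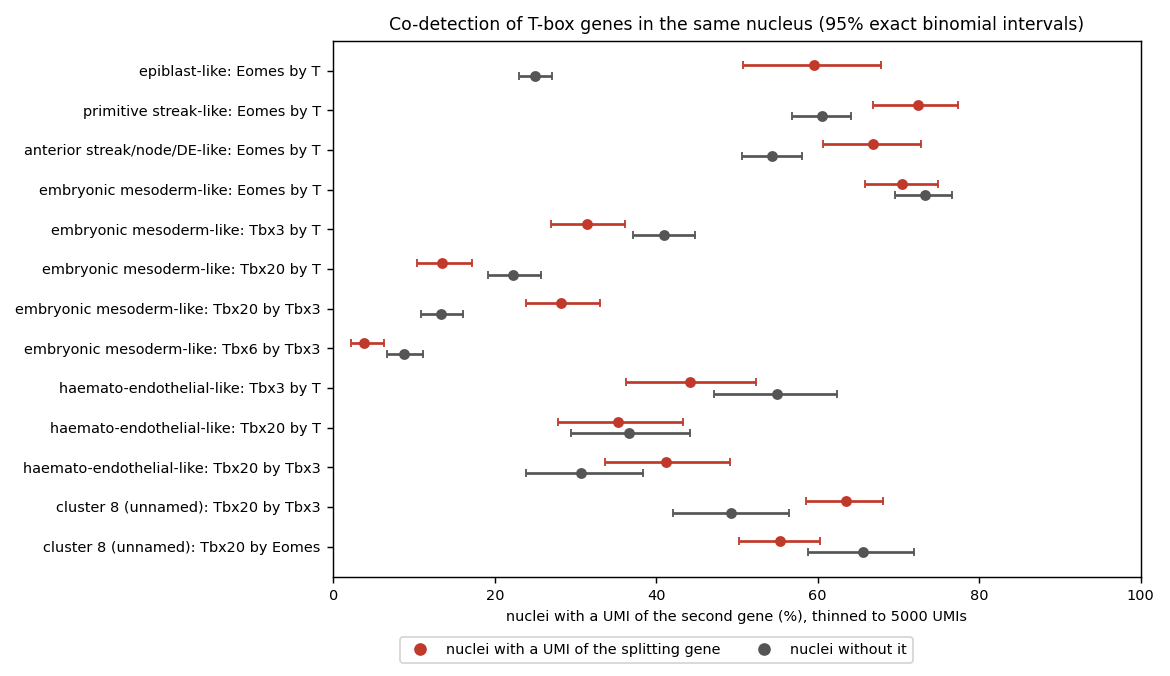
Share of nuclei with a UMI of a second gene (x axis, %) among nuclei with (red) and without (grey) a UMI of a first gene, for 13 class and gene pairs (y axis, second gene by first gene). Points are shares after thinning and lines the exact 95% binomial (Clopper-Pearson) interval. Red lies right of grey for Eomes by T in the epiblast-like and primitive streak-like classes and left of grey for Tbx3 and Tbx20 by T in embryonic mesoderm-like nuclei.

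Because each nucleus carried both assays, accessibility near a gene could be compared between nuclei with and without its UMIs inside 1 accessibility cluster. Over 58 such comparisons of distal peaks, nuclei with a UMI were higher in 48, with a median of 1.18-fold, an interval above 1 in 26 and below 1 in 1. For the distal peaks of the other T-box genes in the same nuclei, nuclei with a UMI were higher in 34 of 58, with a median of 1.01-fold. The interval was above 1 in 9 of these and below 1 in 5. Promoter peaks gave a median of 1.12-fold over 40 comparisons, with an interval above 1 in 7 and below 1 in 1 (Tbx3 in the unnamed cluster 11, 0.721-fold, 0.538 to 0.958). The clusters had been built without these peaks.

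For T, all 12 clusters compared had a value above 1 at its own distal peaks, against 7 of 12 at those of the other T-box genes. The values at its own distal peaks ran from 1.01 to 1.61-fold. The highest was in cluster 6 of the epiblast-like class, where the distal peaks of T had 203 CPM in nuclei with T and 126 in nuclei without, 1.61-fold (1.42 to 1.82), while cluster 7 had 1.01-fold (0.771 to 1.30). Over the whole epiblast-like class it was 1.56-fold (1.40 to 1.72). The distal peaks of the other T-box genes were also higher in these nuclei with T, by 1.11-fold in cluster 6 (1.05 to 1.18) and 1.12-fold over the class (1.06 to 1.17). The 1.56-fold of T's own distal peaks over the class was 1.04 at resolution 0.5 and 1.05 at resolution 2, with intervals that included 1. With at least 2000 UMIs and 2000 peak counts per nucleus it was 1.17. Primitive streak-like nuclei had 1.08-fold (0.988 to 1.18) and embryonic mesoderm-like nuclei 1.17-fold (1.06 to 1.29).

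Tbx3 had 1.79-fold more accessible distal peaks in cluster 8 nuclei with its RNA (1.54 to 2.09), 1.52-fold in parietal endoderm-like nuclei (1.27 to 1.84), 1.51-fold in extraembryonic ectoderm-like nuclei (1.25 to 1.82) and 1.33-fold in embryonic mesoderm-like nuclei (1.21 to 1.46). The 2 visceral endoderm-like clusters differed, cluster 9 with 1.31-fold (1.14 to 1.51) and cluster 5 with 0.910-fold (0.815 to 1.02). In haemato-endothelial progenitor-like nuclei it was the Tbx3 promoter that was higher, 1.86-fold (1.27 to 2.81), not the distal peaks (0.952-fold, 0.762 to 1.20). Tbx20 distal peaks were 1.45-fold in haemato-endothelial progenitor-like (1.10 to 1.93), 1.27-fold in embryonic mesoderm-like (1.08 to 1.47) and 1.25-fold in cluster 8 nuclei (1.04 to 1.52). Clusters with less Tbx20 RNA gave values as high, with 1.67-fold in cluster 5 of the visceral endoderm-like class (1.20 to 2.28) and 1.71-fold in the unnamed cluster 11 (1.28 to 2.26). Values above 1 were found in 10 of 16 clusters for Tbx3 (8 at the distal peaks of the other T-box genes), 16 of 18 for Eomes (13), 8 of 9 for Tbx20 (5) and 1 of 2 for Tbx6 (0). The one with an interval below 1 was Tbx6 in embryonic mesoderm-like nuclei, at 0.846-fold (0.713 to 0.999), and its other comparison, in cluster 8, gave 1.10-fold (0.836 to 1.42).

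**Figure D5:**
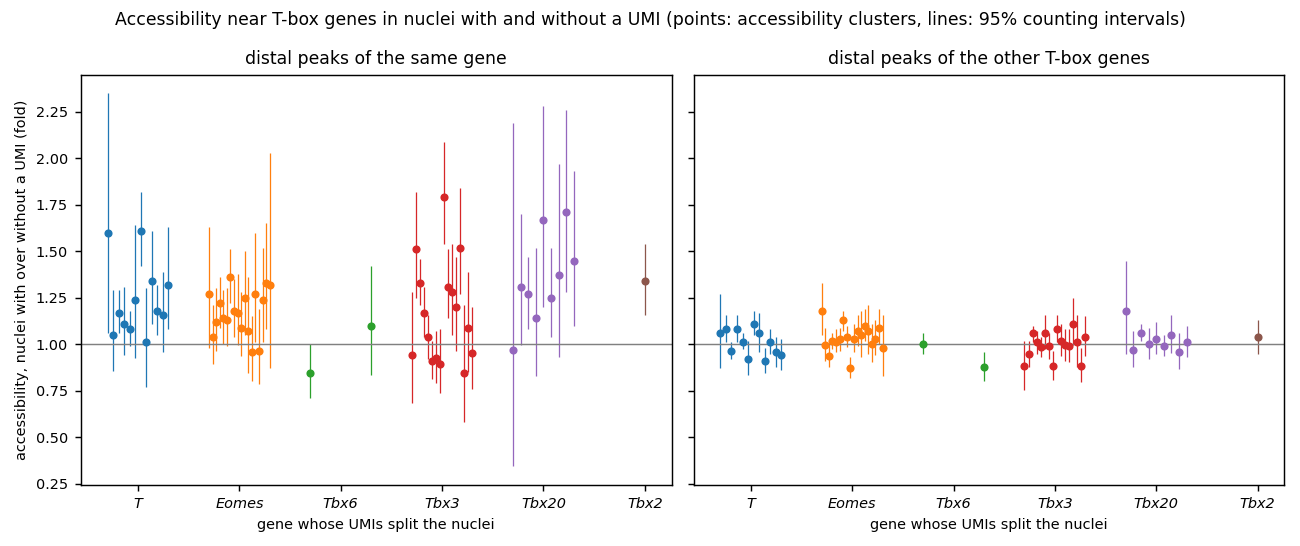
Accessibility of distal peaks in nuclei with a UMI of a gene (x axis) over nuclei without, as a fold (y axis), for peaks of the same gene (left) and of the other T-box genes (right). Each point is 1 accessibility cluster with its 95% counting interval. Values on the left have a median of 1.18 and those on the right 1.01.

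The other genes of the pathway were read from lists, with the same 2-fold rule over all other nuclei. Of 17 signals and mediators upstream of T and Eomes, 4 were higher in primitive streak-like nuclei (3.13% of all genes were): the ligands Wnt3a (5.88-fold), Fgf8 (2.81-fold), Wnt3 (2.65-fold) and Nodal (2.22-fold), with a list median of 0.19 on the log2 scale against -0.04 for all genes. In embryonic mesoderm-like nuclei 6 were higher (5.80% of all genes were), led by Fgf4 (5.40-fold), the Wnt effector Lef1 (4.10-fold) and Wnt3a (3.76-fold), and 2 were lower (15.1% of all genes were). Of these 17 genes, 4 were also markers used to name classes (Wnt3, Wnt3a, Bmp4 and Fgf8), and of the remaining 13, 4 were higher in embryonic mesoderm-like nuclei and 1, Nodal, in primitive streak-like nuclei.

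Of 18 genes known to act downstream of T, Eomes or Tbx6, 17 had enough UMIs and 13 were higher in embryonic mesoderm-like nuclei (5.80% of all genes were), led by Mesp2 (16.1-fold) and Dll1 (16-fold), which act in segmentation, and Lefty2 (11.6-fold), a Nodal inhibitor. Gsc was at 1.33-fold and the endoderm genes Foxa2, Sox17 and Cer1 were lower. As 14 of the 18 were also markers, the count is partly given by the names of the classes. The 4 that were not (Dll1, Mesp2, Ripply2 and Rspo3) were all higher. In primitive streak-like nuclei only Evx1 (2.08-fold) was higher (3.13% of all genes were) and 6 were lower (11.8%), and in the anterior streak, node and definitive endoderm-like class 7 were higher (5.42% of all genes were), led by the markers Cer1 (11-fold), Foxa2 (9.23-fold) and Gsc (6.85-fold), and 5 were lower (10.6% of all genes), with a list median of -0.78 on the log2 scale against -0.06 for all genes. Of the 4 that were not markers, 0 were higher there and 2 lower. Haemato-endothelial progenitor-like nuclei, where T was also high but Eomes and Tbx6 were not 2-fold higher, had 2 higher (7.08% of all genes) and 9 lower (17.5%). Of the 4 that were not markers, 1 was higher there and 2 lower. The list median there was -1.04 against -0.11. Cluster 8, where T was low but Tbx6 was past 2-fold higher and Eomes was not low, had 9 higher (6.63%) and 3 lower (15.4%). Its list median was 1.06 against -0.06, and of the 4 that were not markers 3 were higher and 0 lower. Whether the list follows any of the 3 factors was not tested.

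Of 16 mesoderm, allantois and heart field genes found with Tbx2, Tbx3, Tbx4 and Tbx20, 12 had enough UMIs and 10 were higher in cluster 8 (6.63% of all genes were) and 1 lower (15.4%), with a median of 2.07 on the log2 scale against -0.06 for all genes. They were led by Hand2 (30.5-fold) and Foxf1 (18.4-fold), both transcription factors of lateral and extraembryonic mesoderm, and Mef2c (7.06-fold), a heart field factor. Outside the marker lists 6 of 7 were higher. Embryonic mesoderm-like nuclei had 6 of 12 higher (5.80% of all genes) and 2 lower (15.1%). Haemato-endothelial progenitor-like nuclei had 1 of 12 lower (17.5%) and 3 higher (7.08%), among them the ligands Fgf10 (7.75-fold) and Bmp2 (6.16-fold).

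Of the 10 other T-box genes, 4 had at least 50 UMIs. Tbx18 had 220 of its 265 UMIs in extraembryonic ectoderm-like nuclei, 13.5 CPM against 0.348 CPM elsewhere, 38.8-fold (28.1 to 54.8), and Tbx15 was 3.17-fold higher there (2.56 to 3.91). Tbr1, the closest relative of Eomes, had 128 UMIs and was 2.64-fold higher in visceral endoderm-like nuclei (1.76 to 3.88) and 2.07-fold higher in embryonic mesoderm-like nuclei (1.23 to 3.33). Mga, a large T-box protein that pairs with Max, stayed near its average, between 0.677-fold in extraembryonic ectoderm-like and 1.15-fold in epiblast-like nuclei. Tbx5, a heart field gene, had 25 UMIs, 10 of them in cluster 8.

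The genes whose levels over the 18 accessibility clusters were most like those of a T-box gene were picked by Pearson's r of log2(CPM + 1) among 12306 genes, as a description of points that share 1 library. Tbx6 was most like Mesp1 (0.93), the first cardiac and cranial mesoderm factor, and Snai1 (0.91), a driver of the epithelial to mesenchymal transition. Tbx3 was most like Prdm6 (0.94), P3h2 (0.93) and Gata4 (0.91), and Tbx20 most like Nfatc1 (0.93) and Ets1 (0.91), both known from endothelium and endocardium. T came closest to Akna (0.88), Adcyap1r1 (0.85) and Mixl1 (0.82), a streak homeobox gene, and Eomes to Relt (0.91), Sh3pxd2a (0.89) and Plekhg2 (0.88). Among the 7 themselves, Tbx3 and Tbx20 (0.82), Tbx2 and Tbx3 (0.79), Tbx2 and Tbx20 (0.76) and T and Eomes (0.71) were the closest pairs, and T and Tbx3 were at 0.11. For Tbx4, with 46 UMIs, no likeness is read.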

How the data were processed

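The authors deposited raw counts in 1 sparse matrix, with UMIs for genes and a count for each peak. Per the submitters' processing notes they were made with Cell Ranger ARC 2.0.0 on mm10, and no source used here gives the counting's use of strand. The authors' counts summed to 182201512 UMIs and 273131304 peak counts. Of nonzero peak values, 86.4% were even, so intervals for peaks were made from estimated fragments and scaled to the fold of the counts.

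The filters on nuclei were 1000 UMIs, 500 genes, 1000 peak counts and a mitochondrial share of 20%. Scrublet in scanpy 1.11.5 (expected rate 0.1) called 1154 doublets (7.52%), which were removed. Both assays were clustered apart (leidenalg 0.10.2, 30 components, 15 neighbours, resolution 1), RNA on 2000 variable genes without T-box genes, accessibility without peaks within 50000 bp of the 7 genes. Clusters were named from marker lists without T-box genes, by mean log2 fold at a pseudocount of 1 CPM, with at least 3 raised markers and no rival list; this naming rule was set after seeing the data. CPM is UMIs, or peak counts, per 1000000 of the group's total. Intervals at 95% are exact (Poisson, Clopper-Pearson) and cover counting error only. As each assay had 1 library, no test was made. Co-detection used nuclei thinned to 5000 UMIs, leaving out 1609 shallower ones. The peaks named are the promoter peaks, the distal peak with most counts and the distal peak of at least 200 counts with the largest fold, plus the one with the highest r, added after its values were seen. Of the lists, up to 3 genes with the largest fold among genes of at least 50 UMIs were named, with some others named after their values were seen. The alternatives were clustering resolutions of 0.5 and 2, deeper nuclei, doublets kept, other peak windows, estimated fragments, other thinning and, chosen after seeing the data, leaving out very deep or low-depth nuclei. Fold intervals for genes were tried on simulated Poisson counts, which have no spread between nuclei. This could not show how they hold in real nuclei, and the intervals for peaks were not tried. The 7 genes and the lists were chosen with earlier results of these data known.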

Additional observations from a re-analysis of the deposited data

How the results depend on the processing

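No paired analysis was possible because each assay had 1 library and the replicate number was given in accession order. The count of T-box genes at least 2-fold higher in a named accessibility-defined class was 5 of 6, against 41.3% of all genes. It was 3 at resolution 0.5, where no embryonic mesoderm-like or visceral endoderm-like class was named by accessibility, though both were named by RNA. It was 5 to 7 in the other alternatives. The 79 distal peaks became 34 when only those within 20000 bp were counted, fewer peaks by construction, 57 with estimated fragments, where the limit of 200 was put on fragments, and 71 with the wider promoter, and the 0 promoter peaks became 1 with a promoter of 2000 bp to each side. Eomes in primitive streak-like nuclei with T, 72.4%, was 89.7% without thinning and 81.7% with 8000 UMIs. The 1.56-fold of T distal peaks in epiblast-like nuclei with T was 1.04 at resolution 0.5, 1.05 at resolution 2, 1.17 with at least 2000 UMIs and 2000 peak counts, and 1.32 with doublets kept. The difference of -8.71 percentage points in Tbx20 between embryonic mesoderm-like nuclei with and without T turned to 0.530 without thinning and was -2.49 with nuclei over 20000 UMIs left out, -13.4 with at least 2000 UMIs and 2000 peak counts, -15.0 with doublets kept and -16.5 at resolution 2. The cause was not tested in any of these. Of 179 alternative values, 1, the Tbx20 difference without thinning, reversed, though the rule used could not call counts or percentages reversed. Another 9 for the main results and 33 for the others moved, for folds and percentages by leaving the interval of the main setting. Differences in percentage points that kept their direction could still change size several-fold, as that of Eomes by T in epiblast-like nuclei (34.6, lowest 5.31). Depth limits Tbx4 (46 UMIs), Tbx2 (263) and Tbx6 (472) most, and with 1 library per assay no spread between embryos is known.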
